A study of Rattus norvegicus with 6 samples.

Results

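The miR-17-92 cluster is a group of 6 microRNA hairpins that are cut from a single primary transcript. Its members were taken by name from the precursor alignments of 6 small RNA libraries of a rat cell line: rno-mir-17, rno-mir-18a, rno-mir-19a, rno-mir-19b, rno-mir-20a and rno-mir-92a. With their genomic copies these names cover 9 of the 383 precursors in the files, or 6 of 336 names once copies are collapsed. Each distinct read was counted once per library, and a read that matched several members equally was kept in a shared group of its own. The members gave 26 features, a feature being an arm, a loop, a flank or a shared group, of 683 in all.

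The libraries came from AR42J, an established line derived from the rat exocrine pancreas and grown in F12K medium. In the treated group, 3 libraries came from cells that had received 200 µM sodium taurocholate, a bile salt, for 30 min. The other group held 3 libraries from untreated AR42J cells. The labels do not say whether replicates were separate cultures, so a p-value here speaks of library-to-library spread alone, and that spread may be technical.

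Each hairpin can release a 5p arm and a 3p arm, of which one is usually kept in the silencing complex. The seed, the stretch near the 5′ end that pairs with target mRNAs, defines the family of a microRNA. The cluster is known from human and mouse work as a target of MYC that promotes proliferation: miR-17 and miR-20a repress cell cycle inhibitors such as CDKN1A, and miR-92a is known for repressing integrin ITGA5 in the endothelium. The hairpins are transcribed together and cut apart afterwards.

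The mature sequences below show how the 6 members fall into 4 seed families and are the reference for every read end described here. They are from RefSeq (assembly GRCr8), with the seed, bases 2 to 8, in capitals.
miR-17-5p: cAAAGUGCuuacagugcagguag
miR-20a-5p: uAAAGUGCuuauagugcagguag
miR-18a-5p: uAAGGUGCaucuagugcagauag
miR-18a-3p: aCUGCCCUaagugcuccuucu
miR-19a-3p: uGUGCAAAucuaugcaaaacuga
miR-19b-3p: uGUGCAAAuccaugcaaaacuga
miR-92a-3p: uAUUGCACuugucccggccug
miR-92a-1-5p: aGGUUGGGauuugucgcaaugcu
The seed AAAGUGC was shared by miR-17-5p and miR-20a-5p, and GUGCAAA by miR-19a-3p and miR-19b-3p. The miR-18a-5p and miR-92a-3p seeds stood alone among the main arms. In GRCr8 all 6 hairpins lie on the plus strand within 785 bases at chr15:98587848-98588632. A further 3 copies, of miR-17, miR-19b and miR-92a, lie on the minus strand of chromosome X beside the related miR-106a-363 hairpins.

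The libraries held 3343552 to 3780777 aligned miRNA reads with taurocholate and 2791878 to 3987307 without. One exocrine marker, miR-148a, made up 284171 to 406601 CPM, the read count scaled to the miRNA reads of its library, with taurocholate and 352143 to 421894 in untreated libraries. The defining acinar markers miR-216a, miR-216b and miR-217 had only 3, 5 and 5 reads over all 6 libraries, so the labelled cell type was not borne out by them. Markers of other cells were present. Summed over its list, the stromal pair miR-143 and miR-145 ran from 10112 to 13799 CPM with taurocholate and from 12324 to 14103 CPM without. The blood and immune markers (4 of 4 with reads, miR-142 leading) ran from 1946 to 3649 CPM with taurocholate and from 2065 to 3859 CPM without. The endocrine and neuroendocrine markers (2 of 2 with reads) were almost wholly miR-7a. Their sum did not overlap between groups and ran from 41206 to 54718 CPM with taurocholate and from 54968 to 59673 CPM without. The other marker, miR-375, overlapped and had a higher mean with taurocholate. It ran from 6.08 to 77.5 CPM with taurocholate and from 2.51 to 41.4 CPM without. Of all the miRNA features tested below, 13.8% did not overlap in CPM. The muscle markers (2 of 2) ran from 5.03 to 14.6 CPM with taurocholate and from 0.752 to 64.2 CPM without, and the liver marker miR-122 was at most 23.9 CPM with taurocholate and 26.7 CPM in untreated libraries. The part of these markers in the results was not tested. Taurocholate replicate 1 stood apart in its read ends, since 22.1% of all its miRNA reads carried a mismatched G as last base, against 1.54% and 1.90% in the other taurocholate libraries and 5.32%, 1.20% and 1.45% in the untreated libraries.

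The cluster as a whole was a small and similar share of the miRNA reads in both groups. Its total was 4582, 2486 and 4200 CPM in taurocholate replicates 1 to 3 and 3046, 4070 and 4022 CPM in untreated replicates 1 to 3. Taurocholate replicate 2 was lowest, untreated replicate 1 was next, and the groups overlapped. The means were 3756 ± 1116 CPM with taurocholate and 3713 ± 578 CPM in untreated cells (SD, n = 3 each). Taurocholate replicate 2 and untreated replicate 1 also had the highest miR-148a levels, at 406601 and 421894 CPM; the part of miR-148a in the cluster totals was not tested. With miR-148a left out of the library totals, the cluster averaged 5588 ± 1212 CPM with taurocholate and 5987 ± 616 CPM in untreated cells. The difference in mean log2 CPM was -0.02, and leaving out 1 library gave between -0.19 (without taurocholate replicate 1) and 0.25 (without taurocholate replicate 2). It was -0.12 with miR-148a left out of the totals. In these bulk libraries fewer cells with the transcript and less RNA per cell cannot be told apart.

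Within the cluster miR-92a was the most abundant member and miR-18a the least. All levels of members are in CPM and are not divided by length, as mature miRNAs are of nearly equal length. miR-92a had 2370, 1344 and 2136 CPM with taurocholate and 1947, 2345 and 2272 CPM in untreated libraries. miR-20a had 1198, 606 and 1130 CPM with taurocholate and 565, 843 and 914 CPM in untreated libraries. miR-17 had 676, 329 and 564 CPM with taurocholate and 303, 419 and 467 CPM in untreated libraries. For these 3 members taurocholate replicate 2 lay below the other taurocholate libraries, untreated replicate 1 lay below the other untreated ones, and the groups overlapped.

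The miR-19 pair came next, miR-19b with 169, 99.7 and 184 CPM under taurocholate and 95.4, 249 and 177 CPM in untreated libraries. miR-19a had 112, 68.8 and 128 CPM with taurocholate and 104, 166 and 139 CPM in untreated libraries. miR-18a had 50.8, 32.8 and 52.8 CPM with taurocholate and 27.0, 41.6 and 45.5 CPM in untreated libraries. Again the groups overlapped for each. The ratio of miR-92a to miR-18a ran from 40.5 to 72.0 across libraries, although both come from the same transcript on chromosome 15; for miR-92a the copy on chromosome X may add to it.

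The order miR-92a, miR-20a, miR-17, miR-19b, miR-19a, miR-18a held in each library with 1 exception. In untreated replicate 1 the miR-19b to miR-19a ratio was 0.921, while it was between 1.28 and 1.5 in the other 5 libraries. The order of miR-19b and miR-19a thus did not hold in every library, and the difference between them was not tested. By contrast, miR-20a was 1.77 to 2.01 times miR-17 in every library, although the CPM ranges of the 2 overlapped between libraries.

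**Figure D1:**
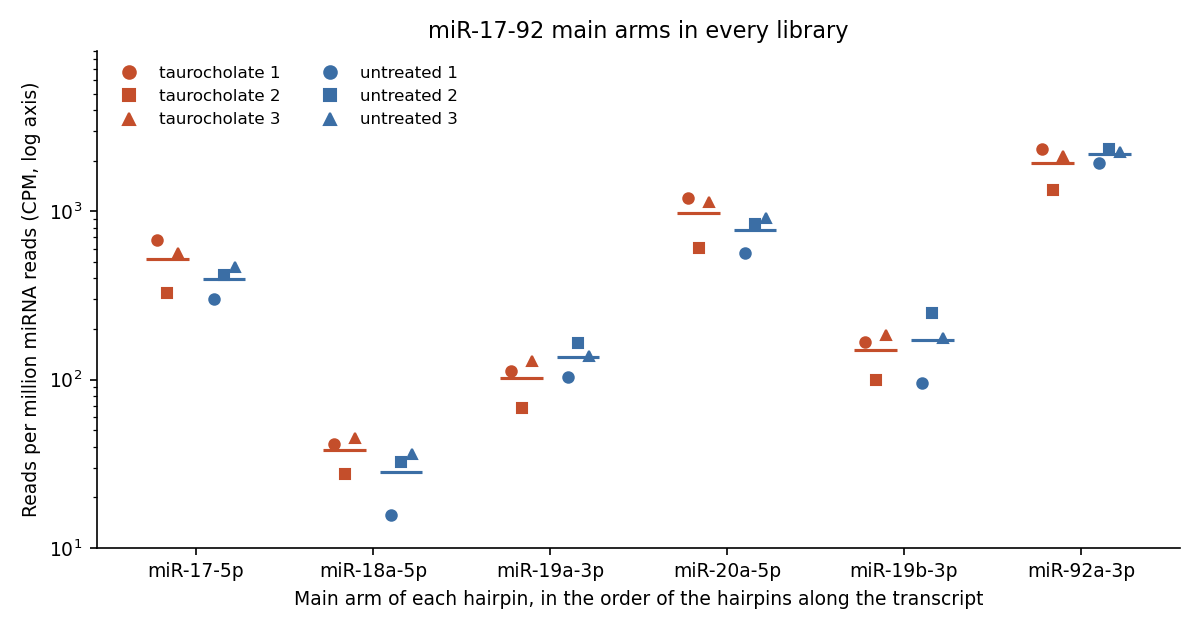
CPM of the main arm of each hairpin (log axis), with each symbol a library, orange for taurocholate and blue for untreated, and bars for group means. miR-92a-3p is highest and miR-18a-5p lowest, the groups overlap for every arm, and taurocholate replicate 2 is the lowest taurocholate library throughout.

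As shares of the cluster, miR-92a was smaller and both AAAGUGC members larger with taurocholate. miR-92a made up 51.7%, 54.1% and 50.8% of cluster reads with taurocholate and 63.9%, 57.6% and 56.5% in untreated libraries. miR-20a made up 26.1%, 24.4% and 26.9% with taurocholate and 18.5%, 20.7% and 22.7% in untreated libraries. miR-17 made up 14.8%, 13.2% and 13.4% with taurocholate and 9.95%, 10.3% and 11.6% in untreated libraries. None of these 3 overlapped between groups. miR-19a, at 2.45%, 2.77% and 3.05% with taurocholate and 3.40%, 4.08% and 3.45% in untreated libraries, also did not overlap. miR-19b averaged 4.02% ± 0.352 with taurocholate and 4.55% ± 1.5 in untreated libraries, and miR-18a 1.23% ± 0.108 and 1.01% ± 0.120 (SD, n = 3 each), and for both the groups overlapped. Thus 4 of 6 members did not overlap in their share. The ratio of a feature outside the cluster to the cluster total did not overlap in 22.3% of 291 features. That ratio is an unlike measure, because a member is part of the total it is divided by and an outside feature is not. The shares add up to a fixed total, so the members' differences are not independent, and no test was made on them.

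No member passed the test of change across the whole table. With edgeR's quasi-likelihood test and Benjamini-Hochberg adjustment over 341 tested features, 0 of 9 tested member features were called at an adjusted p under 0.05, beside 0.00% of all features. At an unadjusted p under 0.05 there was 1 member, miR-19a-3p, and there were 57 features in the table, or 16.7%. DESeq2 called 10 features, 3.97% of the 252 with an adjusted p, and none of them was a member. The other 17 member features, with 1 to 52 reads each over all libraries, were too low to test.

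The estimates for 5p arms were above 0 and those for 3p arms below 0, none of them past the threshold. The estimated log2 fold change of miR-17-5p was 0.31 (SE 0.18), that of miR-20a-5p 0.25 (SE 0.19) and that of miR-18a-5p 0.38 (SE 0.26), with adjusted p-values of 0.425, 0.511 and 0.505 in edgeR. Among 3p arms the estimate was -0.48 for miR-19a-3p (SE 0.19, edgeR adjusted p = 0.283), -0.27 for miR-19b-3p (SE 0.30, edgeR adjusted p = 0.653) and -0.26 for miR-92a-3p (SE 0.12, edgeR adjusted p = 0.330). The minor arms tested were miR-92a-5p, at 0.09 (SE 0.19), and miR-18a-3p, at -0.27 (SE 0.39). Thus 4 member features were estimated above 0 and 5 below, against 151 and 190 of all features. The estimates leaned on single libraries. Without taurocholate replicate 2 they were 0.49 for miR-17-5p, 0.44 for miR-20a-5p, -0.12 for miR-92a-3p, -0.13 for miR-19b-3p and 0.015 for miR-18a-3p. Without untreated replicate 2 they were -0.28 for miR-19a-3p, -0.17 for miR-92a-3p and 0.11 for miR-19b-3p, and without untreated replicate 1 they were 0.19 for miR-18a-5p and -0.47 for miR-19b-3p. Without taurocholate replicate 1 the miR-17-5p estimate was 0.20. The median log2 fold change was -0.26 for members and -0.04 for all.

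Reads that cannot be assigned to miR-19a or miR-19b were the only tested member feature whose CPM did not overlap between groups, at 3.89, 3.44 and 4.12 with taurocholate and 4.89, 5.27 and 5.73 in untreated libraries. Over all tested features 13.8% of features did not overlap, and 1 of 9 is near that. The shared reads had a log2 fold change of -0.52 (SE 0.26, edgeR adjusted p = 0.361).

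**Figure D2:**
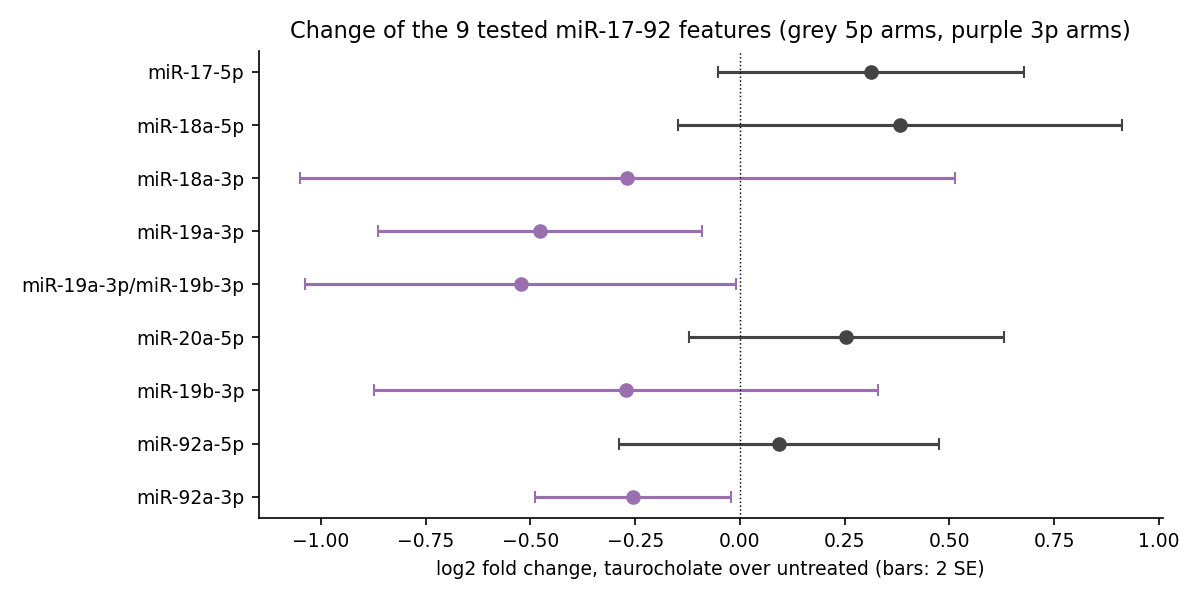
Estimated log2 fold change of the 9 tested features, taurocholate over untreated, with bars of 2 SE, grey for 5p arms and purple for 3p arms. The 4 features from 5p arms are above 0 and the 5 from 3p arms below 0 (miR-18a-3p and miR-19b-3p turn above 0 when 1 library is left out), and none passed the adjusted threshold.

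Ratios between members within a library do not depend on how libraries are scaled. Of the 15 ratios between the 6 main arms, 8 did not overlap between groups, beside 23.7% of the 44551 ratios of any 2 well covered miRNA features. These ratios were examined after the levels had been seen, and 15 ratios of 6 arms are not independent. All 8 paired a main 5p arm (miR-17, miR-18a or miR-20a) with a main 3p arm (miR-19a, miR-19b or miR-92a), so that 8 of the 9 ratios of this kind did not overlap. None of the 6 ratios within an arm class did so. No seed was shared between the main 5p and the main 3p arms, so arm and sequence family cannot be told apart here. Set against each other by replicate number, all 9 cross-arm ratios moved in 1 direction in all 3 pairs. For the 8 without overlap any pairing of libraries gives this, so their paired count is not a further result. Among cross-arm ratios only that of miR-17-5p to miR-19b-3p, which overlapped, could have differed. Within an arm class 3 of the 6 ratios moved in 1 direction in all 3 pairs. Of the ratios of any 2 well covered miRNA features, 42.6% did so, a share that includes those without overlap. The smallest paired p is 0.25. The 3 within an arm class were miR-17-5p to miR-18a-5p and miR-19a-3p to miR-92a-3p, lower with taurocholate, and miR-18a-5p to miR-20a-5p, higher. Over the whole table, a 5p feature was higher relative to a 3p feature, with no overlap, in 10.1% of ratios, and lower in 12.1%.

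The log2 ratio of miR-17-5p to miR-92a-3p, 2 products of the ends of the cluster, was -1.81, -2.02 and -1.92 with taurocholate and -2.68, -2.48 and -2.28 in untreated libraries. The difference was 0.57 on the log2 scale (exact permutation p = 0.1, adjusted 0.188 over 15 ratios). That of miR-20a-5p to miR-92a-3p was -0.98, -1.14 and -0.91 with taurocholate and -1.78, -1.47 and -1.31 in untreated libraries, a difference of 0.51. Every taurocholate library lay above every untreated library in both. With 3 libraries a group, 0.1 is the smallest p that this two-sided test can give.

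The largest shift was that of miR-18a-5p to miR-19a-3p, neighbouring hairpins, with log2 ratios of -1.45, -1.31 and -1.51 with taurocholate and -2.72, -2.35 and -1.93 in untreated libraries. This is a difference of 0.92, and of 0.72 without untreated replicate 1, where miR-18a-5p had only 48 reads. For miR-17-5p to miR-19a-3p the ratios were 2.58, 2.27 and 2.14 with taurocholate and 1.55, 1.34 and 1.76 in untreated libraries, a difference of 0.78. Without untreated replicate 1 that difference was also 0.78, so which of these shifts was the larger depended on that library. Of the 9 cross-arm ratios, that of miR-17-5p to miR-19b-3p overlapped, since untreated replicate 1 (1.66) exceeded taurocholate replicate 3 (1.62). Within the AAAGUGC family the ratio overlapped: miR-17-5p to miR-20a-5p was -0.83, -0.88 and -1.0 with taurocholate and -0.90, -1.01 and -0.97 in untreated libraries.

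**Figure D3:**
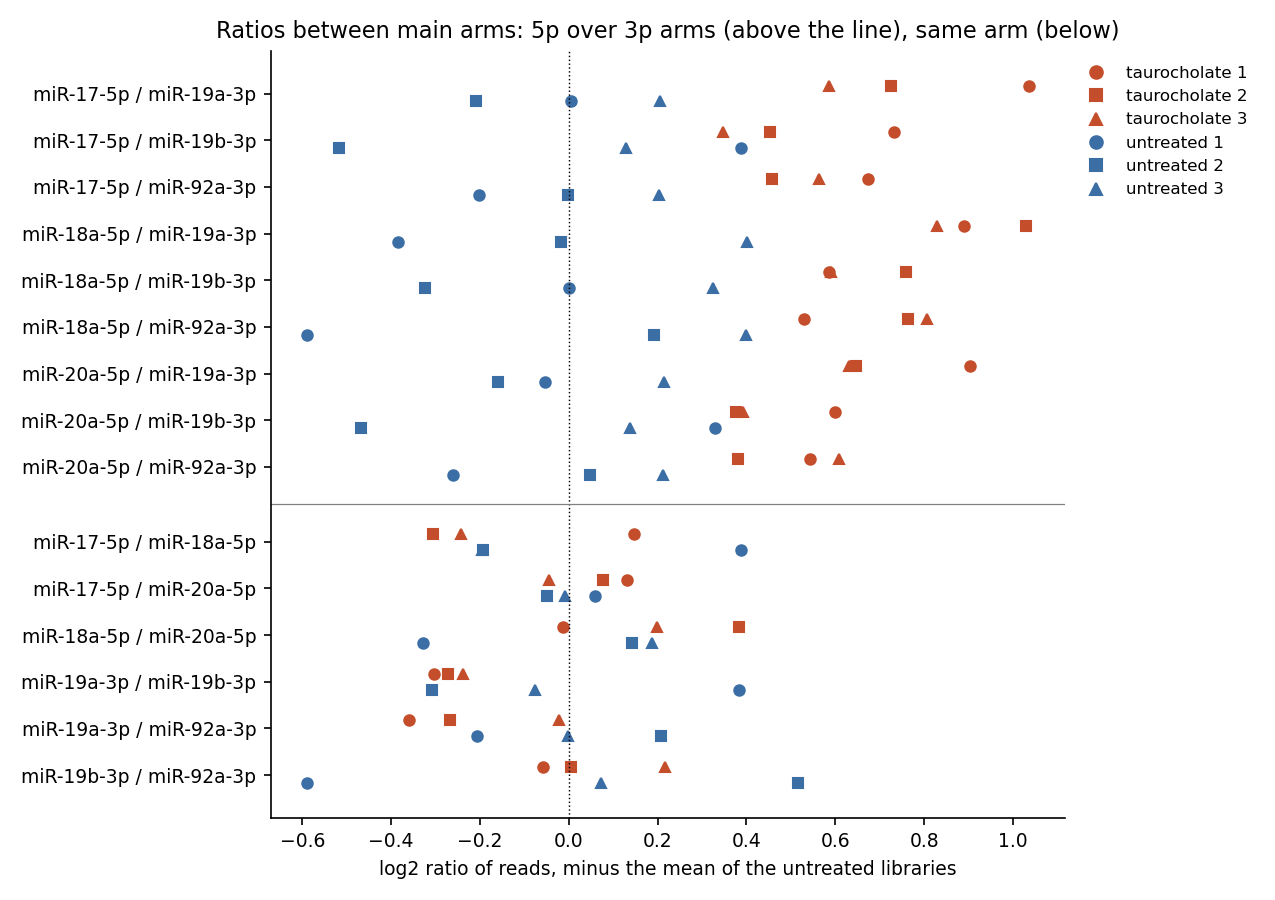
Log2 ratio of reads for each pair of main arms, shifted by the mean of the untreated libraries, one symbol per library, with orange taurocholate points above blue untreated points. In 8 of the 9 pairs of a 5p over a 3p arm every taurocholate library lies above every untreated library, while all 6 pairs of the same arm overlap.

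Arm use was strongly one-sided in 5 of the 6 hairpins. Over all libraries the minor arm held 0.0609% of the miR-20a arm reads (11 reads), 0.148% of miR-17 (14 reads), 0.324% of miR-19a (8 reads), 0.384% of miR-19b (13 reads) and 0.478% of miR-92a (203 reads). miR-18a differed, with 13.96% of its arm reads from the 3p arm (111 reads against 684 of the 5p arm; 95% Wilson interval 11.7% to 16.5%). By library the miR-18a-3p share was 14.3%, 7.96% and 11.8% with taurocholate and 27.3%, 17.8% and 9.82% in untreated libraries, so the groups overlapped. These intervals cover counting error only, because reads without molecular identifiers are not independent molecules.

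Only miR-92a had enough reads in both arms to compare their ratio, with 40, 35 and 36 reads of its 5p arm with taurocholate and 25, 38 and 29 in untreated libraries. All of these 5p reads matched the chromosome 15 copy. The 3p reads included 8084 that matched both copies and 2436 that matched the chromosome X copy best, so the ratio may mix 2 hairpins. The log2 ratio of 5p to 3p reads was -7.62, -7.17 and -7.75 with taurocholate and -7.90, -7.94 and -7.77 in untreated libraries. The groups did not overlap, and the gap between taurocholate replicate 3 and untreated replicate 3 was small. The difference was 0.35 (exact permutation p = 0.1) and 0.18 without taurocholate replicate 2, and 13.8% of all precursors with both arms covered were higher with taurocholate without overlap.

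Loop reads came almost entirely from the miR-18a hairpin, apart from 1 read of miR-19b in untreated replicate 2. Reads under 16 nt were not available, so a shorter loop cut exactly between the arms could not be seen. This holds at least for miR-92a on chromosome 15, whose 5p arm ends at 98588587 and whose 3p arm starts at 98588602. For miR-17, miR-19a, miR-19b and miR-20a the length of this stretch is not given here. Loop reads therefore cannot be compared between hairpins. miR-18a had 8, 8 and 4 loop reads with taurocholate and 13, 6 and 13 loop reads in untreated libraries, 52 in all. The most abundant loop read, with 34 reads, filled the stretch between the mature arms, bases 40 to 57 of the hairpin, shown in capitals in the RefSeq hairpin (chr15:98587984-98588079, GRCr8, plus strand).
miR-18a hairpin: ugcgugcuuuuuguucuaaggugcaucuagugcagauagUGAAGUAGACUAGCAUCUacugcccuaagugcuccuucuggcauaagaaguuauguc
miR-18a loop read: tgaagtagactagcatct
The groups overlapped in loop reads, and these were too few to test.

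The 5′ ends, which set the seed, matched RefSeq in most members, and miR-19a-3p was the exception. Reads starting at the RefSeq 5′ end made up 100% of miR-18a-5p, 99.8% of miR-20a-5p, 99.7% of miR-19b-3p, 99.4% of miR-92a-3p and 98.7% of miR-17-5p. In miR-19a-3p they made up 83.1% of 2460 reads, and 410 reads, or 16.7%, began 1 base upstream. The most abundant error-free read at each start shows how the seed, in capitals, shifts.
miR-19a-3p, RefSeq start: tGTGCAAAtctatgcaaaactgat
miR-19a-3p, 1 base upstream: tTGTGCAAatctatgcaaaactga
The second form has the seed TGTGCAA in place of GTGCAAA, the seed of the miR-19 family.

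The upstream start was present in every library, at 16.5%, 16.7% and 18.2% of miR-19a-3p reads with taurocholate and 17.7%, 16.2% and 14.8% in untreated libraries. The groups overlapped. The share of reads at the RefSeq start averaged 82.7% ± 0.988 with taurocholate and 83.5% ± 1.22 in untreated libraries (SD, n = 3 each; exact permutation p = 0.4). miR-19b-3p, which has the same seed, had 99.7% at that start, so the pair differed in every library. Among the 5 arms with enough reads, none differed between groups in its 5′ end without overlap, against 11% of all arms covered.

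**Figure D4:**
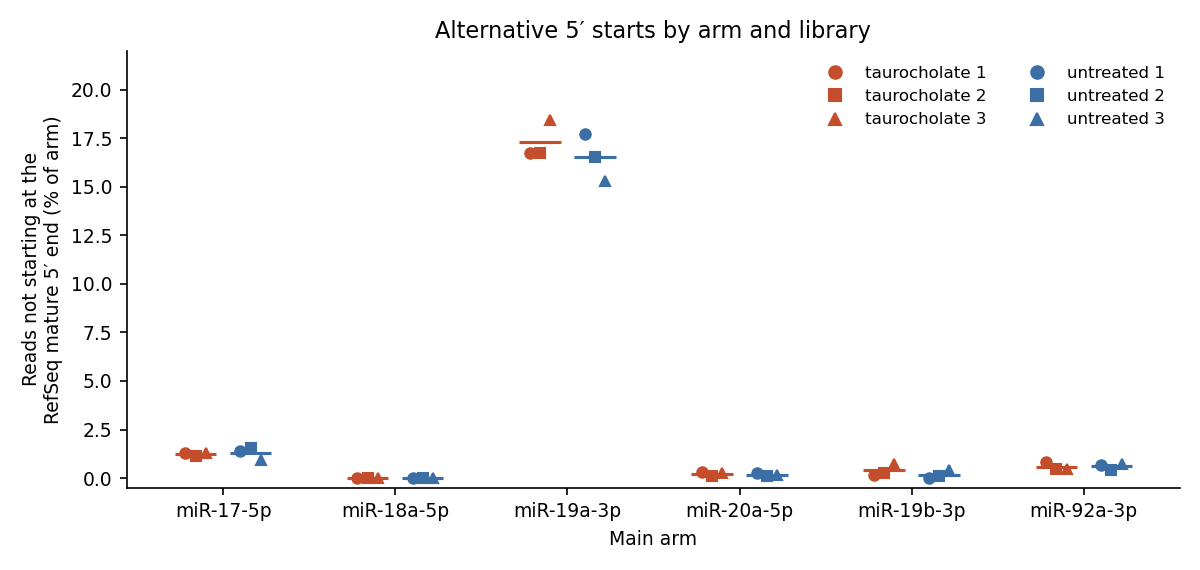
Percent of reads of each main arm that do not start at the RefSeq mature 5′ end, by library, with bars for group means. miR-19a-3p lies far above the other arms in all 6 libraries, and its groups overlap.

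The 3′ ends varied more. The most used end position held 48.6% of reads in miR-17-5p, 56.3% in miR-18a-5p and in miR-19a-3p, 70.0% in miR-20a-5p, 71.9% in miR-19b-3p and 73.9% in miR-92a-3p. In miR-92a-3p that position was not the RefSeq end. Its most used read was 1 base longer than the RefSeq sequence, with 20394 reads, and the RefSeq sequence itself had 503. The read forms below cover the ends discussed here, with the bases after the RefSeq end in capitals.
miR-92a-3p ending T: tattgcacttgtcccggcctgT
miR-92a-3p ending TA: tattgcacttgtcccggcctgTA
miR-92a-3p ending TT: tattgcacttgtcccggcctgTT
miR-92a-3p ending A: tattgcacttgtcccggcctgA
miR-92a-3p ending C: tattgcacttgtcccggcctgC
miR-92a-3p ending G: tattgcacttgtcccggcctgG
T and TT are the bases of the chromosome 15 hairpin, and A is the next base of the chromosome X hairpin.

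The form ending TA was more frequent with taurocholate, at 10.7%, 15.4% and 12% of miR-92a-3p reads, against 7.21%, 8.72% and 8.30% in untreated libraries. The form ending C was less frequent, at 5.03%, 7.25% and 7.76% with taurocholate and 10.4%, 12.2% and 11.2% in untreated libraries. Neither overlapped between groups. The form ending G was at 20.4%, 1.25% and 1.51% with taurocholate and 4.75%, 1.07% and 1.16% in untreated libraries, so it was highest in taurocholate replicate 1 and next in untreated replicate 1. The genome-matching form ending T was at 34.9%, 47.5% and 50.9% with taurocholate and 50.7%, 53.6% and 52.3% in untreated libraries, which overlapped.

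Of the 28 end positions that held at least 1% of the reads of a main arm, 10 did not overlap between groups, beside 36.4% of 909 such positions over all arms covered, so the members' share was close to that of all arms. Of the 10, 3 were in miR-92a-3p, 2 each in miR-18a-5p and miR-20a-5p, and 1 each in miR-17-5p, miR-19a-3p and miR-19b-3p. In miR-17-5p the end 2 bases short of RefSeq held 6.29%, 8.13% and 7.32% with taurocholate and 12.1%, 9.53% and 10.7% in untreated libraries. In miR-20a-5p it held 4.90%, 4.93% and 6.01% with taurocholate and 10.5%, 7.51% and 7.96% in untreated libraries. For both AAAGUGC members this shorter end was lower with taurocholate without overlap. The same held for miR-18a-5p, which has another seed. There it was 15.2%, 17.3% and 14.6% with taurocholate and 18.8%, 20.2% and 17.8% in untreated libraries, from 9 to 26 reads per library. In miR-19a-3p and miR-19b-3p the groups overlapped at this end.

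In miR-92a-3p, reads of the RefSeq sequence were 1.51%, 1.55% and 1.51% with taurocholate and 0.857%, 0.870% and 0.903% in untreated libraries. Reads ending 2 bases past the RefSeq end were 24.8%, 26.3% and 21.8% with taurocholate and 17.9%, 18.6% and 19% in untreated libraries. Mean read length was higher with taurocholate by 0.0617 nt in miR-92a-3p and 0.0707 nt in miR-17-5p (exact permutation p = 0.1, adjusted 0.25 over 5 arms). These were 2 of 5 member arms, beside 8.29% of all arms covered that were longer with taurocholate without overlap. With error-free reads the differences were -0.00719 nt in miR-92a-3p and 0.0109 nt in miR-17-5p. The share of reads equal to the most used read without its last base, which for miR-92a-3p is the RefSeq sequence, was higher without overlap in 2 of 5 arms, miR-92a-3p and miR-19b-3p, beside 22.7% of all arms.

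The next values are for a last base that differs from the precursor, as a share of all reads of the arm. A was more frequent with taurocholate, without overlap, in miR-19a-3p, miR-19b-3p and miR-92a-3p, beside 24.9% of all arms. In miR-92a-3p it was 11.2%, 16.3% and 12.8% with taurocholate and 7.76%, 9.27% and 9.12% in untreated libraries. C was less frequent without overlap in miR-17-5p, miR-20a-5p and miR-92a-3p, that is in 3 of 5 members, beside 56.9% of all arms. In miR-92a-3p it was 6.10%, 8.64% and 9.20% with taurocholate and 11.9%, 14.0% and 13.1% in untreated libraries. T was less frequent without overlap in miR-20a-5p only, 1 of 5 members, beside 25.4% of all arms. Each had an exact permutation p of 0.1, and the adjusted p over 20 comparisons was 0.286. Of all miRNA reads, 5.09%, 8.03% and 7.80% with taurocholate and 9.31%, 11.2% and 10.2% in untreated libraries had a mismatched last C. A mismatched last A was in 8.60%, 10.6% and 11.3% with taurocholate and 6.63%, 8.24% and 8.40% in untreated libraries. Neither overlapped. A mismatched last T was in 5.73%, 8.05% and 8.92% with taurocholate and 7.17%, 6.56% and 7.21% in untreated libraries, which overlapped. The part of the table-wide values in those of the members was not tested.

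**Figure D5:**
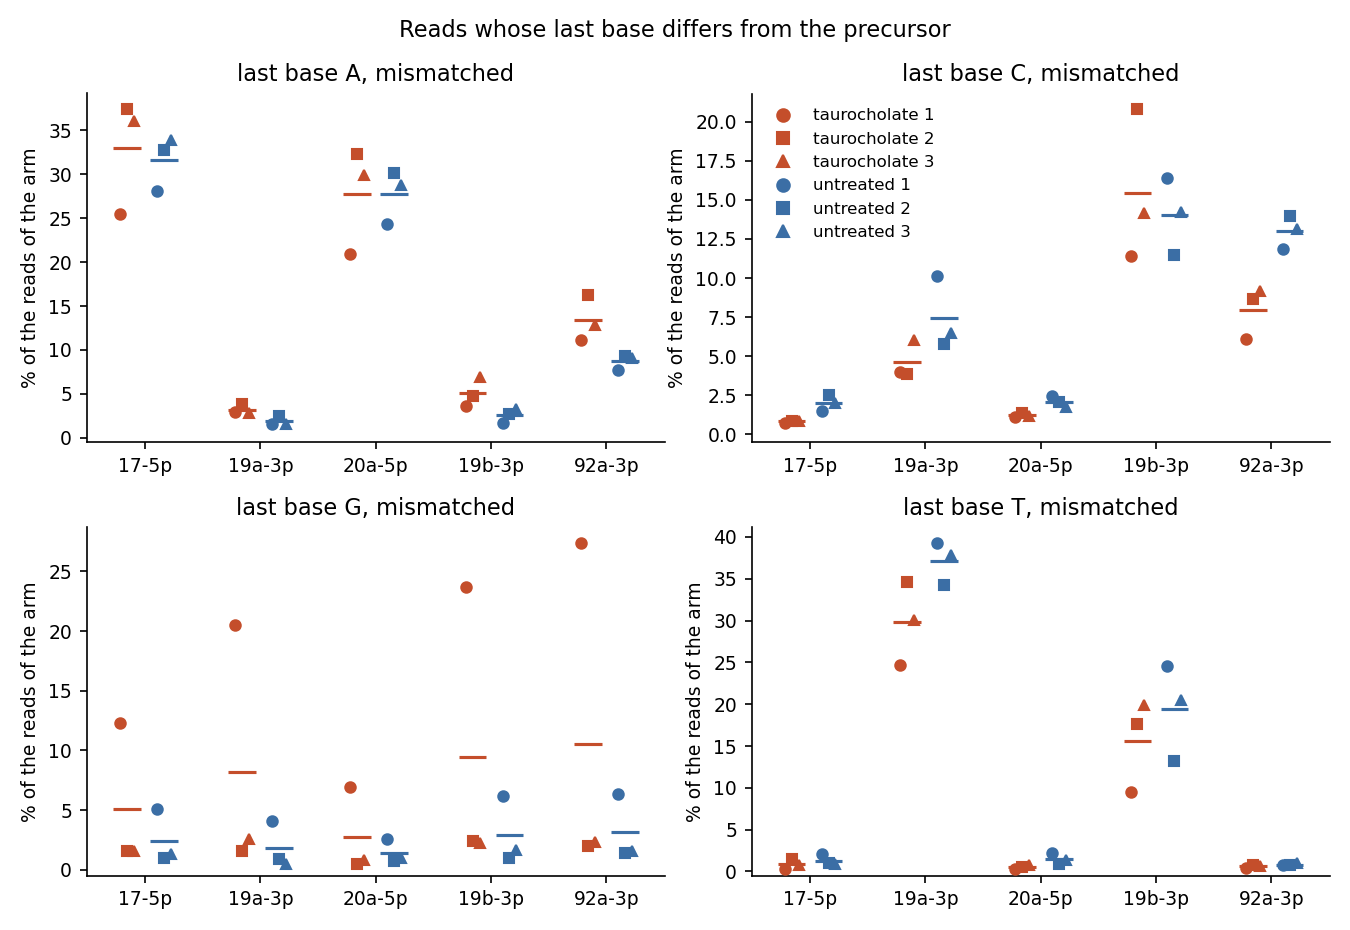
Percent of the reads of 5 main arms whose last base is a mismatched A, C, G or T, by library, with bars for group means. The G panel shows taurocholate replicate 1 above every other library in all 5 arms, and in miR-92a-3p the groups separate for A (higher with taurocholate) and C (lower).

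Reads told the genomic copies apart only in part. For miR-92a-3p, 31724 reads matched the chromosome 15 copy best, 8084 matched both and 2436 matched the chromosome X copy best. Of the last, 2007 were the form ending A, which an untemplated A on the chromosome 15 product would also give, so the 2 cannot be told apart. Longer reads that carry further chromosome X bases were rare, with 3 reads ending AG and 1 ending AGG over all libraries, against 2776 reads ending TT. All 203 miR-92a-5p reads, all 13 miR-19b-5p reads and all 14 miR-17-3p reads matched the chromosome 15 copy. For miR-17-5p, 8506 reads matched both copies, 772 the chromosome 15 copy and 169 the chromosome X copy.

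The miR-106b-25 cluster, a paralogue whose members share the seeds of miR-17 and miR-92a, was as abundant as miR-17-92. For miR-106a-363 the count was 90 reads in all, 17 of miR-20b-5p and 73 of miR-363-3p. The chromosome X copies of miR-17, miR-19b and miR-92a, which lie beside these hairpins, were counted with the members. Reads that miR-20b-5p shared with a member were not in this count either. The level of the chromosome X hairpins as a whole is therefore not known from it. Both clusters together had 8 features, of which 6 were tested, 4 estimated higher, 2 lower and 0 called. The miR-106b-25 total was 5058, 3585 and 4557 CPM with taurocholate and 3009, 3553 and 3622 CPM in untreated libraries. Taurocholate replicate 2 fell within the untreated range. miR-25-3p, which has the miR-92a seed, had 3372, 2541 and 3051 CPM with taurocholate and 1957, 2319 and 2306 CPM in untreated libraries, without overlap. Its log2 fold change was 0.38 (SE 0.09, edgeR adjusted p = 0.133), the opposite sign to that of miR-92a-3p; the difference between the 2 was not tested. miR-93-5p, which has the miR-17 seed, had a log2 fold change of 0.24 (SE 0.13, edgeR adjusted p = 0.410), and miR-106b-5p one of -0.00 (SE 0.16).

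The miRNAs outside the cluster whose levels ran most like the cluster total across the 6 libraries were miR-365-3p, miR-29a-3p and miR-221-3p, with root mean square log2 differences of 0.06, 0.07 and 0.07 among 138 miRNA features compared. miR-29a-3p had 5381, 2680 and 4313 CPM with taurocholate and 3441, 4532 and 4691 CPM in untreated libraries. As in the cluster, taurocholate replicate 2 was lowest. All these values share the library totals.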

How the data were processed

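Small RNA reads from 3 taurocholate and 3 untreated AR42J libraries were analysed from the read counts per distinct sequence that the authors deposited, with their precursor alignments, per the file headers. Per the submitters' processing notes FastQC, cutadapt and Novoalign 2.07.11 were used; their genome build is not given in the sources used here. RefSeq sequences are of GRCr8. The files held reads of 16 to 28 nt with at most 1 mismatch, 1 insertion and 1 deletion.

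Each sequence was counted once per library and assigned to precursor, arm or shared set. Positions were set against RefSeq hairpins, which they led by 5 nt in 265 of 266 comparable precursors. Counts were tested with edgeR 4.0.16 (TMM, quasi-likelihood, low-count filter) and DESeq2 1.42.0. Single values were tested by two-sided exact permutation, read ends in arms with at least 100 reads per library. TMM factors were 0.832 to 1.16 with taurocholate and 0.881 to 1.05 in untreated libraries.

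The members, the lists and the ratios were chosen with earlier results of these data known. Every member arm was named or counted; read sequences were the most abundant error-free ones of arms with at least 100 reads, and the forms of miR-92a-3p and the loop read were added after their values were seen. The labels do not say that replicate numbers are pairs. Deviations from the group means correlated by 0.29, 0.63 and 0.19 for numbers 1, 2 and 3 over 341 features. Untreated replicate 1 correlated most with taurocholate replicate 3 (0.42), so these values do not settle the pairs of numbers 1 and 3. The numbers were taken as pairs only in the replicate block and the paired comparisons.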

Additional observations from a re-analysis of the deposited data

How the results depend on the processing

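For the member arms, 0 were called under DESeq2, library totals, no filter, error-free reads, copies kept apart, the replicate block and leaving out any library. Over the whole table DESeq2 called 10 features. With the replicate block the counts of calls stayed at 0 and no call changed; the smallest p of a paired permutation is 0.25. With error-free reads the difference in miR-20a share was 7.57 points, the ratios without overlap numbered 7 in place of 8, and these values changed sign: mean length of miR-19a-3p (-0.0229 nt) and miR-92a-3p (-0.00719 nt), the 5′ share of miR-92a-3p (-0.0344 points) and the log2 ratio of miR-17-5p to miR-20a-5p (-0.014). The cause was not tested.

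Leaving out each library in turn, the ratios without overlap numbered 8 to 11. Groups that are apart stay apart when a library is left out, so the count could not fall below 8. Smaller groups also separate more easily. The 8 cross-arm ratios and the miR-92a arm ratio, all without overlap, had to keep their sign. The arm ratio difference ran from 0.18 to 0.47, lowest without taurocholate replicate 2, and was 0.75 with error-free reads. The miR-17-5p to miR-19b-3p ratio, which overlapped, also kept its sign (0.25 to 0.70). The log2 ratio of miR-20a-5p to miR-19b-3p differed by 0.46, and by 0.22 without untreated replicate 2. The log2 fold changes ran from 0.20 to 0.49 for miR-17-5p, 0.19 to 0.56 for miR-18a-5p, 0.18 to 0.44 for miR-20a-5p, -0.61 to -0.28 for miR-19a-3p, -0.31 to -0.12 for miR-92a-3p and 0.06 to 0.18 for miR-92a-5p. The sign was not kept by the log2 fold changes of miR-18a-3p (-0.49 to 0.015, above 0 without taurocholate replicate 2) and miR-19b-3p (-0.47 to 0.11, above 0 without untreated replicate 2), or by the log2 ratios of miR-17-5p to miR-18a-5p (-0.27 to 0.060) and miR-19b-3p to miR-92a-3p (-0.24 to 0.31). Small differences in read ends also changed sign. In points of the 5′ share they ran from -0.0823 to 0.237 for miR-17-5p, -0.0933 to 0.0129 for miR-20a-5p and -0.0592 to 0.129 for miR-92a-3p, and the mean length of miR-19b-3p ran from -0.0665 to 0.112 nt. For the most used read without its last base they ran from -0.554 to 0.822 for miR-17-5p, -3.83 to 2.89 for miR-19a-3p and -0.548 to 0.0259 for miR-20a-5p. For a mismatched last A they ran from -0.883 to 5.1 for miR-17-5p and -2.35 to 3.37 for miR-20a-5p, and for C from -1.25 to 3.44 for miR-19b-3p. For G, where taurocholate replicate 1 stood apart, they ran from -0.898 to 4.48 for miR-17-5p, -0.600 to 10.1 for miR-19b-3p, -0.769 to 2.46 for miR-20a-5p and -0.977 to 11.7 for miR-92a-3p, each lowest without that library. Minor arms, with as few as 8 reads, limit what can be said of arm use.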
